A study of Homo sapiens with 54 samples.

Results

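Medium spiny neuron-like cells were given 1 mM dopamine once a day for 2 days, and their RNA was compared with that of cells given only the ascorbic acid vehicle. The members are the 3 libraries whose titles carry Ch2D (called 2 Day here) and the 3 whose titles carry ChAACtrl (AA vehicle), and they make up 6 of the 53 libraries of the series with a table used here. The cells were derived from H9 (WA09), a human embryonic stem cell line, by an Activin A induction protocol that yields neurons resembling the GABAergic projection neurons of the striatum (hMSN-like cells). The 2 Day cultures received dopamine hydrochloride dissolved in ascorbic acid and were lysed 1 h after the last dose, while the vehicle cultures received ascorbic acid without dopamine. Both groups were collected on the same day in vitro, so the time since differentiation was matched. The number of vehicle additions is not given in the sources used here. The cultures hold more than one cell type and come from a single cell line. The labels do not say whether replicates were separate differentiations, so the p-values measure the spread between these libraries, which may be technical. In such bulk RNA, fewer cells of a type and less RNA per cell cannot be told apart.

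Dopamine acts on G protein-coupled receptors, of which the D1-like class raises and the D2-like class lowers cyclic AMP, and medium spiny neurons are its main target cells in the striatum. Signals that reach the nucleus through calcium, cyclic AMP or the ERK kinases switch on immediate early genes, which need no new protein to be transcribed. Their products are mostly transcription factors, such as those of the FOS, JUN and EGR families, and inhibitors that limit the same signals, such as the dual specificity phosphatases. Ascorbic acid is added to dopamine because dopamine oxidizes in culture medium, and a vehicle that contains it therefore controls for the antioxidant. Control for the handling of the cells depends on matched additions and timing, which are not given in the sources used here.

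Between 11122092 and 16382071 gene reads were counted per library at 2 Day, and between 14747364 and 16013901 with vehicle. Introns took 12.7% to 15.0% of these reads at 2 Day and 14.7% to 15.8% with vehicle. Mitochondrially encoded genes took 7.86% to 8.38% of exon reads at 2 Day and 6.25% to 7.48% with vehicle, so this share did not overlap between the groups. All 13 mitochondrially encoded mRNAs had a positive log2(fold change), of 0.21 to 0.37, and 4 passed the test, against 2.89% higher among all genes tested. With 1 library left out, 0 to 7 of the 13 passed. None passed without 2 Day replicate 2, AA vehicle replicate 1 or AA vehicle replicate 2. TPM (exon reads per exon length, scaled to the same sum in each library) of the median gene was lower at 2 Day by a log2 value of 0.11, whereas the log2(fold change) values below are scaled by TMM, on which the median over all genes tested was 0.01. A ratio of the TPM values below is therefore about 0.12 log2 units under the log2(fold change) given with it. The part of these shares in the results was not tested.

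Of 16054 genes tested on exon reads with edgeR, 1102 differed between 2 Day and AA vehicle at an adjusted p under 0.05 (6.86%) and are called differentially expressed genes (DEGs). Of all genes tested, 464 were higher at 2 Day (2.89%) and 638 lower (3.97%). Most differences were small. The median absolute log2(fold change) was 0.51 among the higher and 0.42 among the lower DEGs, and 1009 DEGs differed by less than 2-fold. Among the DEGs that differed at least 2-fold and had a group mean of at least 1 TPM, 64 were higher and 26 lower, so the larger changes were mainly increases. The count depended on single libraries. It was 273 without AA vehicle replicate 2, 338 without AA vehicle replicate 1, 373 without AA vehicle replicate 3 and 499 without 2 Day replicate 2, and 216 DEGs, of which 112 were higher and 104 lower, passed in all 6 fits that left out 1 library.

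**Figure D1:**
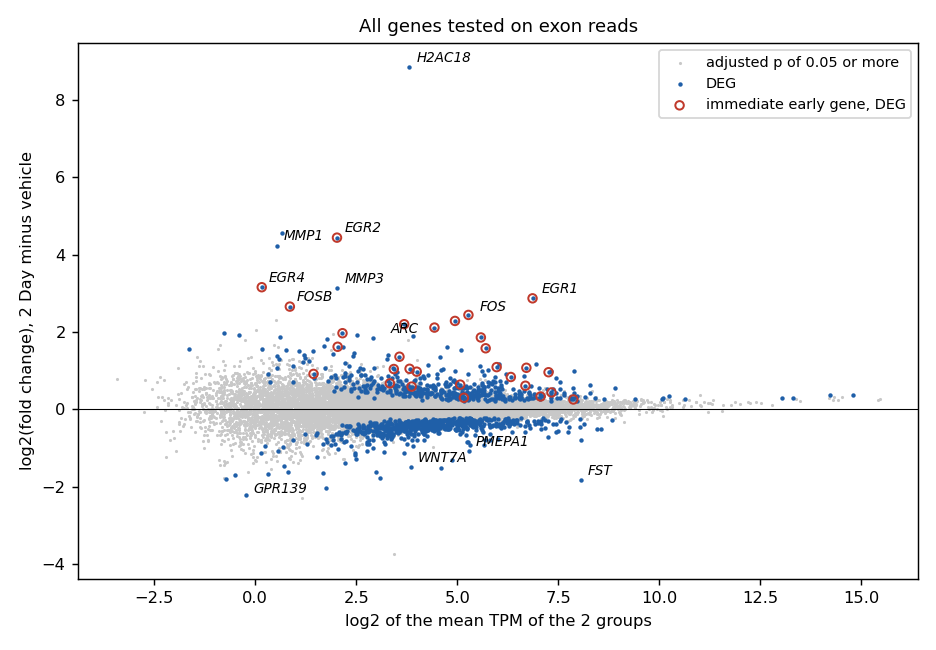
Log2(fold change) of 2 Day over vehicle (vertical axis) for the 16054 genes tested on exon reads, against the log2 of the mean TPM of both groups (horizontal axis). Blue points are the 1102 DEGs and red circles mark the 29 immediate early gene DEGs, which all lie above 0. The point of H2AC18 rests on reads that cannot be assigned to a single gene copy.

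The immediate early genes were the group with the largest increase. Of the 34 listed, all 34 were tested, 29 were higher and none lower, against 2.89% higher among all genes tested. Their median log2(fold change) was 1.04, against 0.01 for all genes, and their summed TPM was 2409 to 2847 at 2 Day and 1697 to 1761 with vehicle. With 1 library left out, 22 to 29 of them remained higher and none was lower, and 22 passed in all 6 such fits. Among the 2 Day libraries, replicate 2 had the highest TPM for 22 of these 29 DEGs and replicate 3 the lowest for 14.

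EGR1 (ENSG00000120738, chr5:138465479-138469303 of GRCh38), a zinc finger transcription factor, had 27, 28.6 and 35 TPM with vehicle and 212, 237 and 159 TPM at 2 Day. Its levels were low in every vehicle library and high in every 2 Day library, a 7.3-fold increase (log2(fold change) 2.87, SE 0.15, adjusted p = 3.29e-06). EGR2 (ENSG00000122877, chr10:62811996-62919900), a second member of the family, had 0.447, 0.377 and 0.312 TPM with vehicle and 8.66, 8.11 and 6.47 TPM at 2 Day. It was close to undetected with vehicle, with 15 exon reads over the 3 libraries against 289 at 2 Day, and it had the highest fitted change of the list (log2(fold change) 4.44, SE 0.28, adjusted p = 9.62e-06). The ratio per exon read sequenced was 21.7. EGR4 had 0.116, 0.234 and 0.363 TPM with vehicle and 1.43, 2.5 and 2.06 TPM at 2 Day, which is 6 against 50 exon reads, a ratio of 9.39 per exon read sequenced with an exact 95% binomial interval of 4.02 to 26.8 that covers counting error only. EGR3 had 1.69, 1.93 and 2.23 TPM with vehicle and 6.87, 8.35 and 5.71 TPM at 2 Day (log2(fold change) 1.97, adjusted p = 0.000637). All 4 EGR genes were thus called higher at 2 Day.

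Of the FOS family, which pairs with JUN proteins to form the transcription factor AP-1, FOS (ENSG00000170345, chr14:75278826-75282230) had 12.6, 12.8 and 13.4 TPM with vehicle and 68, 70.4 and 55.2 TPM at 2 Day. The vehicle libraries lay close together and the increase was 5.42-fold (log2(fold change) 2.44, SE 0.11, adjusted p = 1.06e-06). FOSB (ENSG00000125740, chr19:45467995-45475179) had 0.445, 0.40 and 0.777 TPM with vehicle and 2.1, 4.49 and 2.64 TPM at 2 Day, so its level stayed below 5 TPM in every library while differing 6.29-fold (log2(fold change) 2.65, SE 0.38, adjusted p = 0.00305). FOSL2 had 7.4, 9.85 and 12 TPM with vehicle and 20.0, 21.1 and 14.4 TPM at 2 Day (log2(fold change) 1.05, adjusted p = 0.0075), whereas FOSL1 overlapped between the groups and did not pass (log2(fold change) 1.14, adjusted p = 0.128). JUNB had 30.9, 25.7 and 27.8 TPM with vehicle and 60.0, 104 and 64.5 TPM at 2 Day, an increase of 2.98-fold (log2(fold change) 1.58, SE 0.20, adjusted p = 0.00112). JUN, already abundant with vehicle, had 154, 143 and 135 TPM with vehicle and 177, 193 and 165 TPM at 2 Day, and its increase was 1.35-fold (log2(fold change) 0.44, adjusted p = 0.00847). JUND overlapped between the groups (log2(fold change) 0.25, adjusted p = 0.0778).

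The promoters of 4 of these genes are shown. They were chosen because they hold copies of sequence elements through which immediate early genes are known to be controlled. Each run is 300 bases of RefSeq sequence (build GRCh38.p14), from 250 bases before the annotated start to 50 bases after it, 5′ to 3′ on the strand of the gene. Capitals mark CArG boxes, the binding element of serum response factor, and the letters TGACG, the core of the cyclic AMP response element, which reads CGTCA where it lies on the other strand.
EGR1 (chr5:138465229-138465528, plus strand): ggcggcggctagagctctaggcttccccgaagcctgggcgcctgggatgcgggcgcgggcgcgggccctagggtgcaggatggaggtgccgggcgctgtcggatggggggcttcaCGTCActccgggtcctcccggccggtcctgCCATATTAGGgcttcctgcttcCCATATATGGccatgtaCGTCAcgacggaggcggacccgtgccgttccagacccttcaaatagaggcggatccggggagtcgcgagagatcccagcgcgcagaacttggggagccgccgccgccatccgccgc
EGR4 (chr2:73293499-73293798, minus strand): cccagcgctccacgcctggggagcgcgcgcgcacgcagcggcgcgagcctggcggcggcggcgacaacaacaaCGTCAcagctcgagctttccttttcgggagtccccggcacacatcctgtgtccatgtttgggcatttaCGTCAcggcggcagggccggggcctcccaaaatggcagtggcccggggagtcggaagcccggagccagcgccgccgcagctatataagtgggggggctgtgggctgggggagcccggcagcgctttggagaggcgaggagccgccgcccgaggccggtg
FOS (chr14:75278578-75278877, plus strand): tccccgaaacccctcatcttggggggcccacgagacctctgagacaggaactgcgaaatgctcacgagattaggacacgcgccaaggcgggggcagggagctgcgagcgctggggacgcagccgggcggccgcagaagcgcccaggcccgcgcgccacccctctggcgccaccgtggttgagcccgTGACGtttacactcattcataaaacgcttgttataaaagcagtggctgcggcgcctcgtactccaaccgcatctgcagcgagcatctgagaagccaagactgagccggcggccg
FOSB (chr19:45467746-45468045, plus strand): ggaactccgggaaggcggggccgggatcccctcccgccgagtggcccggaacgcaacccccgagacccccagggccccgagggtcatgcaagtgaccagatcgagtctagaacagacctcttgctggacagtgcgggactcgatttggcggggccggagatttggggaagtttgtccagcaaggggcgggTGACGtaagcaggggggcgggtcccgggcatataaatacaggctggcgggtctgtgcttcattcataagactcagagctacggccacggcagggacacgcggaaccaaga
In the EGR1 window, 2 CArG boxes lay at -105 to -96 and -83 to -74 from the start, between 2 copies of TGACG on the other strand. The EGR4 window held 2 copies of TGACG, and the FOS and FOSB windows 1 each, at -64 to -60 and -60 to -56. None of the 4 held the full palindrome TGACGTCA, which contains TGACG on both strands, or the AP-1 element TGANTCA. On both strands together, 1.29% of the 35116 windows of this kind in the RefSeq table held a CArG box, 24.6% TGACG, 1.85% TGACGTCA and 7.71% TGANTCA. Among the genes tested here that have a window, these shares were 1.11%, 33.6%, 3.15% and 4.39%. A window was matched for 25 of the 34 immediate early genes and for 11761 of the 16054 genes tested, under 80% of each, so the shares were not compared between gene groups. No match to any of these elements was found in the windows of EGR2, CCN2, ZFP36, NR4A1, ATF3, IER5, IER5L, KLF2 and KLF6. Of the immediate early genes with a window, only EGR1 and SRF had a CArG box, and SRF was not a DEG. The matches describe letters and not bound sites. Only exact matches within these 300 bases were counted, so elements farther from the start or with other letters would be missed.

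ARC, a protein of the postsynaptic density, had 9.17, 8.26 and 8.74 TPM with vehicle and 32.2, 38.6 and 32.8 TPM at 2 Day, a 4.32-fold increase with little spread (log2(fold change) 2.11, SE 0.12, adjusted p = 5.41e-06). NPAS4, a transcription factor induced by calcium entry in neurons, had 1.6, 1.86 and 2.94 TPM with vehicle and 6.69, 5.13 and 6.42 TPM at 2 Day (log2(fold change) 1.62, adjusted p = 0.00571). CCN1, a secreted matricellular protein, had 10.1, 12.1 and 11.8 TPM with vehicle and 50.9, 68.3 and 31.3 TPM at 2 Day, so that 2 Day replicate 3 lay well below the other two (log2(fold change) 2.28, SE 0.25, adjusted p = 0.000637). CCN2, its relative, showed the same order of libraries with 20.4, 20.3 and 26.1 TPM with vehicle and 73, 96.2 and 51.7 TPM at 2 Day (log2(fold change) 1.86, adjusted p = 0.00064). Both are also targets of serum response factor and its actin-sensing cofactors. ZFP36, which promotes the decay of mRNAs with AU-rich elements, had 5.14, 4.22 and 5.53 TPM with vehicle and 20.2, 27.8 and 14.4 TPM at 2 Day (log2(fold change) 2.20, adjusted p = 0.000853). MAFF, a small Maf factor, had 6.29, 7.32 and 7.67 TPM with vehicle and 16.3, 19.7 and 13.9 TPM at 2 Day (log2(fold change) 1.36, adjusted p = 0.00118).

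The remaining DEGs of the list rose less. IER2, IER3 and IER5L, short-lived regulators induced by growth factors, had log2(fold change) values of 1.09, 1.07 and 0.83, and IER5 one of 0.33. Of the NR4A orphan nuclear receptors, NR4A1 (log2(fold change) 1.04, adjusted p = 0.00305) and NR4A3 (log2(fold change) 0.67, adjusted p = 0.00555) were higher, while NR4A2 had 14.5, 14.4 and 11.5 TPM with vehicle and 10.7, 9.11 and 10.6 TPM at 2 Day and a log2(fold change) of the opposite sign that did not pass (log2(fold change) -0.29, adjusted p = 0.167). HES1, a repressor that is also a Notch target, rose from 110.0 ± 1.89 TPM to 196 ± 5.18 TPM (SD, n = 3) with a standard error of 0.07 on its log2(fold change) of 0.96 (adjusted p = 2.40e-05). Further members higher at 2 Day were ATF3, KLF4, KLF6, KLF10, BTG2, MYC and MCL1, with log2(fold change) values from 0.25 for MCL1, an anti-apoptotic BCL2 relative, to 0.97 for ATF3, a stress-induced transcription factor. KLF2 (log2(fold change) 0.72, adjusted p = 0.19) and SRF (log2(fold change) 0.15, adjusted p = 0.158) did not pass. Of the DEGs of this list, those not called in all 6 fits with 1 library left out were ATF3 (4 of 6 fits, adjusted p up to 0.0685), IER5 (3 of 6 fits, adjusted p up to 0.0872), JUN (5 of 6 fits, adjusted p up to 0.0544), KLF4 (1 of 6 fits, adjusted p up to 0.165), KLF6 (2 of 6 fits, adjusted p up to 0.128), MCL1 (3 of 6 fits, adjusted p up to 0.0912) and MYC (4 of 6 fits, adjusted p up to 0.0701).

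**Figure D2:**
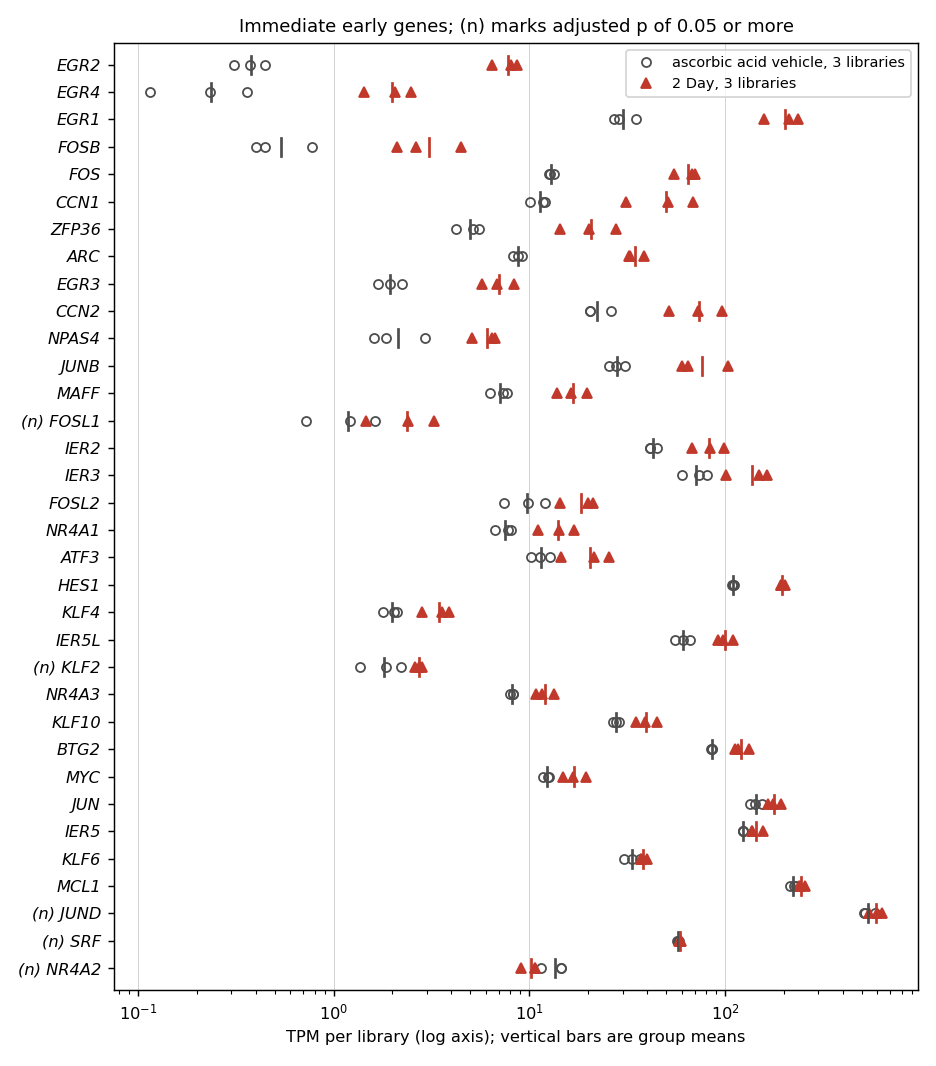
TPM per library on a log axis for the 34 immediate early genes, ordered by log2(fold change). Open circles are the 3 vehicle libraries, red triangles the 3 libraries of 2 Day and vertical bars the group means, and the separation is widest for EGR2, EGR4, EGR1 and FOSB while the groups overlap for FOSL1, JUND and SRF.

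The list of MAPK and ERK feedback genes holds mainly inhibitors that the ERK kinases induce, together with ETS transcription factors such as ETV4 and ETV5. In it, 11 of the 21 members tested were higher and 1 lower, against 2.89% and 3.97% of all genes tested. The median log2(fold change) of the list was 0.29. DUSP6, a phosphatase of ERK in the cytoplasm, had 40.6, 39.3 and 48.7 TPM with vehicle and 86.6, 83.6 and 97 TPM at 2 Day (log2(fold change) 1.17, SE 0.10, adjusted p = 0.000151). DUSP5, its nuclear counterpart, had 11.8, 12.7 and 14.2 TPM with vehicle and 24.6, 25.2 and 28.5 TPM at 2 Day (log2(fold change) 1.14, adjusted p = 0.00064). The fold change was 2.25 for DUSP6 and 2.2 for DUSP5. SPRY2, an inhibitor of receptor tyrosine kinase signalling, had 29.7, 27.4 and 30.9 TPM with vehicle and 41.8, 36.7 and 41.3 TPM at 2 Day (log2(fold change) 0.56, adjusted p = 0.00483). The other members that rose were SPRY4, DUSP1, ETV5, DUSP4, DUSP10, SPRY1, ERRFI1 and ETV4. PHLDA1 fell from 76.9 ± 0.698 TPM to 54.1 ± 3.89 TPM (SD, n = 3; log2(fold change) -0.39, adjusted p = 0.00501). DUSP14 had 27.4, 25.2 and 26.3 TPM with vehicle and 26.5, 25 and 23.7 TPM at 2 Day and did not pass (adjusted p = 0.775). DEGs not called in all 6 fits with 1 library left out were ETV5 (5 of 6 fits, adjusted p up to 0.0588), DUSP4 (3 of 6 fits, adjusted p up to 0.103), DUSP10 (2 of 6 fits, adjusted p up to 0.116), SPRY1 (2 of 6 fits, adjusted p up to 0.113) and ERRFI1 (2 of 6 fits, adjusted p up to 0.126). In these fits, 5 to 11 members were higher, with the fewest (5 and 6) without AA vehicle replicate 1 or 2.

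In the list of cyclic AMP and CREB targets, 5 of the 19 members tested were higher and none lower, against 2.89% and 3.97% of all genes tested. The median log2(fold change) of -0.01 was near the 0.01 of all genes. GEM, a small GTPase that inhibits voltage-gated calcium channels, had 15.7, 14.4 and 13.5 TPM with vehicle and 29.5, 46 and 24.1 TPM at 2 Day (log2(fold change) 1.34, adjusted p = 0.00504). RGS2, an inhibitor of G protein signalling, had 61.1, 51.4 and 55.8 TPM with vehicle and 68.8, 82.5 and 88.2 TPM at 2 Day (log2(fold change) 0.64, adjusted p = 0.00693). PER1, a period gene of the circadian clock with cyclic AMP response elements, had 22.3, 23.9 and 20.2 TPM with vehicle and 30.5, 32.9 and 29 TPM at 2 Day (log2(fold change) 0.60, adjusted p = 0.00174). FAM107A rose from 49.1 ± 1.94 TPM to 64.1 ± 0.594 TPM (SD, n = 3; log2(fold change) 0.51, adjusted p = 0.00154). The fifth DEG, SIK1, shares reads with a near-identical copy and is uncertain. Of the circadian clock list, 2 of the 16 members tested were higher and none lower, namely PER1 and BHLHE40, a repressor that had 16.2, 19.4 and 16.5 TPM with vehicle and 35.6, 34.7 and 28.8 TPM at 2 Day (log2(fold change) 1.05, adjusted p = 0.000513).

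Of the regulators of G protein signalling, with G protein-coupled receptor kinases and arrestins, 5 of the 18 members tested were higher and none lower (median 0.40). The shares among all genes tested were 2.89% and 3.97%. All 5 DEGs were RGS genes, which speed the inactivation of G protein alpha subunits. RGS16 had 36.1, 36.3 and 31.9 TPM with vehicle and 58.2, 69.8 and 63 TPM at 2 Day (log2(fold change) 1.0, SE 0.10, adjusted p = 0.000316). RGS4 had 13.5, 13.6 and 15.8 TPM with vehicle and 23.7, 22.2 and 27.3 TPM at 2 Day (log2(fold change) 0.89, adjusted p = 0.00103). RGS3 (log2(fold change) 0.60, adjusted p = 0.00567), RGS2 and RGS8 (log2(fold change) 0.43, adjusted p = 0.00919) were the others. RGS8 was called in 5 of the 6 fits with 1 library left out (adjusted p up to 0.0504). None of the kinase or arrestin genes tested, GRK2 to GRK6, ARRB1 and ARRB2, passed the test.

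Of the activity-induced synaptic and secreted genes, 7 of the 22 members tested were higher and 1 lower (median 0.45). The shares among all genes tested were 2.89% and 3.97%. VGF, a secreted neuropeptide precursor that responds to neurotrophins and depolarization, had 151, 171 and 178 TPM with vehicle and 286, 316 and 310.0 TPM at 2 Day, a 1.99-fold increase (log2(fold change) 0.99, SE 0.08, adjusted p = 0.000151). PCSK1, the convertase that cleaves such precursors, had 25, 26.1 and 28.1 TPM with vehicle and 35.3, 35.1 and 39.1 TPM at 2 Day (log2(fold change) 0.59, adjusted p = 0.00253). NPTX2, a pentraxin that gathers glutamate receptors at synapses, had 20.2, 17.6 and 18 TPM with vehicle and 22, 24.5 and 27.6 TPM at 2 Day (log2(fold change) 0.53, adjusted p = 0.0199). SCG2, CRH and GPR3 rose as well, and NRN1 fell (log2(fold change) -0.31), though not on total gene reads (adjusted p = 0.196). BDNF, the best known activity-induced neurotrophin, was expressed at 1.77 TPM on average with vehicle and 2.78 TPM at 2 Day (log2(fold change) 0.76, adjusted p = 0.05003). The DEGs of this list not called in all 6 fits with 1 library left out were NPTX2 (2 of 6 fits, adjusted p up to 0.0966), SCG2 (2 of 6 fits, adjusted p up to 0.133), CRH (1 of 6 fits, adjusted p up to 0.141), GPR3 (2 of 6 fits, adjusted p up to 0.152) and NRN1 (1 of 6 fits, adjusted p up to 0.139), and the list's higher members numbered 3 to 6 in those fits, with the fewest without AA vehicle replicate 1 or 2.

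The dopamine receptor genes themselves did not pass the test, and most were expressed at low levels. DRD1 had 1.29, 1.03 and 0.285 TPM with vehicle and 1.4, 2.47 and 1.06 TPM at 2 Day, with AA vehicle replicate 3 lowest (log2(fold change) 1.07, SE 0.47, adjusted p = 0.183). DRD2 had 4.8, 5.26 and 6.21 TPM with vehicle and 5.11, 2.94 and 3.19 TPM at 2 Day (log2(fold change) -0.44, SE 0.23, adjusted p = 0.251), with 2 Day replicate 1 inside the vehicle range. DRD3 (log2(fold change) 0.12, adjusted p = 0.859) and DRD4 (log2(fold change) -0.05, adjusted p = 0.927) overlapped between the groups, and DRD5 was below the filter at 0.116, 0.468 and 0.121 TPM with vehicle and 0.791, 0.70 and 0.129 TPM at 2 Day. The 95% confidence interval of the log2(fold change) was 0.05 to 2.09 for DRD1 and -0.94 to 0.06 for DRD2, without adjustment for the number of genes, so these libraries place only wide limits on a change of DRD1. ADORA2A, the adenosine receptor gene that marks indirect pathway neurons, had 3.93, 3.25 and 0.618 TPM with vehicle and 2.33, 2.27 and 2.12 TPM at 2 Day, and 3.58% of its reads were uniquely mapped, so its values are uncertain. ADORA1, the adenosine A1 receptor, fell from 41.4 ± 2.6 TPM to 30.3 ± 1.22 TPM (SD, n = 3; log2(fold change) -0.33, adjusted p = 0.0329), a call that held in 1 of the 6 fits with 1 library left out (adjusted p up to 0.131). None of the 9 genes tested for dopamine synthesis, transport and breakdown passed, with ALDH2 (log2(fold change) 0.10, adjusted p = 0.379) and the monoamine transporter SLC29A4 (log2(fold change) 0.08, adjusted p = 0.445) the most abundant. The transporter genes SLC6A3 and SLC18A2 were below 1 TPM on average in both groups. Of the adrenergic receptor genes, 4 were tested and none passed, including ADRA2A (log2(fold change) -0.12, adjusted p = 0.489) and ADRA2C (log2(fold change) 0.15, adjusted p = 0.462).

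Of the striatal lineage and signalling genes, 1 of the 20 members tested was higher and 2 lower (5% and 10%), against 2.89% and 3.97% of all genes tested. PPP1R1B, which encodes DARPP-32, the phosphatase inhibitor through which dopamine acts in medium spiny neurons, had 22, 25 and 23.4 TPM with vehicle and 15.2, 9.62 and 13.3 TPM at 2 Day, a level lower by a factor of 1.72 with no overlap (log2(fold change) -0.78, SE 0.13, adjusted p = 0.00712). BCL11B, the transcription factor CTIP2 of striatal projection neurons, had 61.5, 64.4 and 59.8 TPM with vehicle and 44.1, 30.3 and 40.8 TPM at 2 Day (log2(fold change) -0.58, SE 0.10, adjusted p = 0.00778). EBF1, a factor of striatonigral differentiation, had 7.15, 7.02 and 7.13 TPM with vehicle and 10.6, 8.89 and 9.22 TPM at 2 Day (log2(fold change) 0.54, adjusted p = 0.0141). The PPP1R1B and BCL11B calls passed in all 6 fits with 1 library left out, and EBF1 in 4 (adjusted p up to 0.0701). General markers were present in both groups. None of the 7 pan-neuronal markers passed, such as STMN2 (log2(fold change) 0.07, adjusted p = 0.583), nor did the 3 GABAergic markers GAD1, GAD2 and SLC32A1. Of 20 medium spiny neuron markers, 19 were tested, with the same 3 DEGs, and their summed TPM was 233 to 262 at 2 Day and 270.2 to 301 with vehicle. The defining neuropeptide markers were low, with PDYN at 0.236 TPM and PENK at 2.16 TPM on average with vehicle.

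Markers of other cells were also expressed. For the counts of marker DEGs, the shares among all genes tested were 2.89% higher and 3.97% lower. Of the 6 progenitor markers, HES1 and HES5 were higher and SOX2 lower (log2(fold change) -0.27, adjusted p = 0.0329), with a summed TPM of 2402 to 2525 at 2 Day and 2311 to 2433 with vehicle. Of the 4 glutamatergic markers, SLC17A6 was higher (log2(fold change) 0.39, adjusted p = 0.0138) and TBR1 lower (log2(fold change) -0.30, adjusted p = 0.0372), and their summed TPM was 594 to 804 against 845 to 993. Of 6 mesenchymal markers, COL1A2 (log2(fold change) 0.57, adjusted p = 0.0129) and COL3A1 (log2(fold change) 0.60, adjusted p = 0.0328) were higher, and their summed TPM was 216 to 325 at 2 Day and 168 to 226 with vehicle. Of 6 astrocyte markers, S100B was higher (log2(fold change) 0.62, adjusted p = 0.0137). No marker tested for cycling cells, oligodendrocyte precursors, endothelial cells or pericytes, microglia, choroid plexus, medial ganglionic eminence interneurons, catecholamine cells, pluripotent cells or neural crest passed the test. TTR, of the choroid plexus, was abundant and variable at 2249, 1965 and 1427 TPM with vehicle and 2085, 3161 and 1426 TPM at 2 Day, and its 3 markers all had positive values that did not pass. The 5 endothelial or pericyte markers had a summed TPM of 14.9 to 28.2 at 2 Day and 12.2 to 16 with vehicle. The 3 of them tested had positive values, with CLDN5 not called on exon reads (log2(fold change) 1.11, adjusted p = 0.0507) and called on total gene reads (adjusted p = 0.0455), while PECAM1 and CDH5 had means below 0.1 TPM. Among the defining markers of other types, AIF1, CX3CR1, NANOG and NKX2-1 had means below 0.3 TPM in both groups. The marker DEGs not called in all 6 fits with 1 library left out were SLC17A6 (4 of 6 fits, adjusted p up to 0.0714), TBR1 (1 of 6 fits, adjusted p up to 0.143), SOX2 (1 of 6 fits, adjusted p up to 0.125), COL1A2 (4 of 6 fits, adjusted p up to 0.0642), COL3A1 (2 of 6 fits, adjusted p up to 0.137), S100B (4 of 6 fits, adjusted p up to 0.0585) and HES5 (1 of 6 fits, adjusted p up to 0.149). SOX2 did not pass on total gene reads (adjusted p = 0.0536).

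Of the genes of the extracellular matrix and its proteases, 11 of the 30 members tested were higher and none lower, against 2.89% and 3.97% of all genes tested. All 30 had a positive log2(fold change) (median 0.41). MMP1 (ENSG00000196611, chr11:102789919-102798160), the interstitial collagenase, had 0.279, 0.141 and 0 TPM with vehicle and 2.48, 2.53 and 3.26 TPM at 2 Day. This is 3 against 55 exon reads, a ratio of 20.7 per exon read sequenced with an exact 95% interval of 6.71 to 103 (adjusted p = 0.00189). MMP3, stromelysin 1, had 0.888, 0.30 and 1.4 TPM with vehicle and 9.33, 2.95 and 9.57 TPM at 2 Day, higher in each 2 Day library but with 2 Day replicate 2 well below the other two (log2(fold change) 3.13, SE 0.54, adjusted p = 0.00802). MMP10, of the same gene cluster, rose as well (log2(fold change) 1.63, adjusted p = 0.0274). The other DEGs were MMP2, MMP14 and the collagen genes COL1A2, COL3A1, COL4A1, COL4A2, COL6A1 and COL6A2, with COL6A2 at 136, 150.1 and 142 TPM with vehicle and 195, 216 and 159 TPM at 2 Day (log2(fold change) 0.53, adjusted p = 0.0129). The number of higher members was 2 to 20 with 1 library left out. It was 20 without 2 Day replicate 3, 5 without 2 Day replicate 2 or 1, 7 without AA vehicle replicate 3 and 2 without AA vehicle replicate 1 or 2. MMP1 and MMP3 passed in all 6 of these fits. The calls of MMP10, MMP2, MMP14 and the collagen genes were lost without AA vehicle replicate 1 or 2, so they depended on single libraries. The groups overlapped for COL3A1. The mesenchymal markers COL1A2 and COL3A1 are members of this list too, and the part of mesenchymal cells in it was not tested.

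Of the TGF beta and BMP list, 5 of the 24 members tested were higher and 1 lower (median 0.22). For this and the next lists, the shares among all genes tested were 2.89% and 3.97%. ID3, an inhibitor of bHLH factors and a direct target of BMP signalling, had 70.6, 83.4 and 87.8 TPM with vehicle and 159.8, 198 and 144 TPM at 2 Day (log2(fold change) 1.18, SE 0.13, adjusted p = 0.00064), and ID1 had 105, 122 and 115 TPM with vehicle and 221, 222 and 178 TPM at 2 Day (log2(fold change) 0.98, SE 0.10, adjusted p = 0.000402). SMAD7, BAMBI and NOG, which inhibit these pathways, also rose, BAMBI with a log2(fold change) of 0.56. PMEPA1, a TGF beta target that dampens SMAD signalling, moved the other way with 40.9, 56.4 and 65.1 TPM with vehicle and 28.1, 20.3 and 22.6 TPM at 2 Day, a level lower by a factor of 2.13 (log2(fold change) -1.09, SE 0.16, adjusted p = 0.00325). Of the Wnt list, 5 of the 26 members tested were higher and 1 lower. DKK3 (log2(fold change) 0.41, adjusted p = 0.0126) and FRZB (log2(fold change) 0.80, adjusted p = 0.0158), secreted proteins of the Dickkopf and Frizzled-related families, rose, as did WNT7B, DKK1 and FZD5, while WNT7A fell. Of the Notch list, 3 of the 17 members tested were higher and 1 lower, with HES1, HES5 (log2(fold change) 0.65, adjusted p = 0.0411) and the ligand DLL1 (log2(fold change) 0.38, adjusted p = 0.0196) higher and NOTCH1 (log2(fold change) -0.24, adjusted p = 0.0472) lower. Of the serum response factor and actin list, 4 of the 19 members tested were higher and none lower, namely CCN1, CCN2, CNN2 (log2(fold change) 0.36, adjusted p = 0.0165) and ZYX (log2(fold change) 0.28, adjusted p = 0.0263). The groups overlapped for HES5 and WNT7B. Those of the named DEGs here not called in all 6 fits with 1 library left out were SMAD7 (1 of 6 fits, adjusted p up to 0.15), BAMBI (1 of 6 fits, adjusted p up to 0.121), NOG (0 of 6 fits, adjusted p up to 0.15), DKK3 (4 of 6 fits, adjusted p up to 0.071), FRZB (4 of 6 fits, adjusted p up to 0.068), WNT7B (1 of 6 fits, adjusted p up to 0.12), DKK1 (0 of 6 fits, adjusted p up to 0.2), FZD5 (1 of 6 fits, adjusted p up to 0.173), HES5 (1 of 6 fits, adjusted p up to 0.149), DLL1 (3 of 6 fits, adjusted p up to 0.0885), NOTCH1 (1 of 6 fits, adjusted p up to 0.163), CNN2 (4 of 6 fits, adjusted p up to 0.0795) and ZYX (2 of 6 fits, adjusted p up to 0.134).

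Of the inflammatory and NF-kB list, 4 of the 12 members tested were higher and none lower (median 0.45), against 2.89% and 3.97% of all genes tested. SOCS3, a feedback inhibitor of cytokine receptors, had 15.2, 19.4 and 21.2 TPM with vehicle and 49.8, 61.4 and 37.4 TPM at 2 Day (log2(fold change) 1.54, SE 0.18, adjusted p = 0.000911). NFKBIA, the inhibitor that holds NF-kB in the cytoplasm, had 29.5, 30.3 and 31 TPM with vehicle and 38.7, 42.2 and 42 TPM at 2 Day (log2(fold change) 0.56, adjusted p = 0.00628). CCL2 (log2(fold change) 0.92, adjusted p = 0.0277) and ICAM1 (log2(fold change) 1.38, adjusted p = 0.0446) also rose, but were called in only 2 and 1 of the 6 fits with 1 library left out (adjusted p up to 0.107 and 0.163). The 4 microglial markers had a summed TPM of 2.69 to 4.89 at 2 Day and 2.8 to 3.92 with vehicle, most of it from PTPRC (log2(fold change) 0.40, adjusted p = 0.329), the only one tested, and their part in this list was not tested.

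Among the stress responses, the GADD45 genes, which are induced by DNA damage and by neuronal activity, rose together. Of the GADD45 and p53 target list, 4 of the 16 members tested were higher and none lower, against 2.89% and 3.97% of all genes tested. GADD45B had 6.82, 6.64 and 6.87 TPM with vehicle and 24.5, 28.2 and 16.6 TPM at 2 Day, a 3.72-fold increase (log2(fold change) 1.89, SE 0.20, adjusted p = 0.000637). GADD45G had 57.7, 49.1 and 56.7 TPM with vehicle and 88.4, 95.1 and 97.3 TPM at 2 Day (log2(fold change) 0.90, adjusted p = 0.000637) and GADD45A had 52.9, 51.7 and 53.9 TPM with vehicle and 75.6, 89.6 and 76.1 TPM at 2 Day (log2(fold change) 0.73, adjusted p = 0.00152). CDKN1A, a cell cycle inhibitor and p53 target, was higher too (log2(fold change) 0.42, adjusted p = 0.0297) but passed in 3 of the 6 fits with 1 library left out (adjusted p up to 0.126). TENT5B, a poly(A) polymerase outside these lists that the study names, had 2.77, 3.03 and 3.74 TPM with vehicle and 7.73, 9.67 and 5.26 TPM at 2 Day (log2(fold change) 1.38, SE 0.28, adjusted p = 0.0155). Its call held in 3 of those fits (adjusted p up to 0.073).

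Oxidation of dopamine is known to stress cells, so the responses to oxidants, metals and misfolded proteins were described as well. The counts here stand against 2.89% higher and 3.97% lower among all genes tested on exon reads. None of the 23 NRF2 targets tested on exon reads passed (median log2(fold change) 0.07), among them HMOX1 (log2(fold change) 0.32, adjusted p = 0.355) and NQO1 (log2(fold change) 0.15, adjusted p = 0.469). On total gene reads 2 of 27 were higher, where 5.23% of all genes tested were higher. Of the metallothionein and zinc genes, the zinc exporter SLC30A1 was the only one of 5 to pass (log2(fold change) 0.51, adjusted p = 0.0117). Of 9 iron handling genes, the transferrin receptor TFRC passed just under the threshold (log2(fold change) 0.37, adjusted p = 0.04999) and overlapped between the groups. Of the ATF4 and unfolded protein response list, 3 of the 24 members tested were higher and none lower, namely PPP1R15A, a phosphatase subunit that reverses translational arrest (log2(fold change) 0.52, adjusted p = 0.0039), ATF3 and TRIB3 (log2(fold change) 0.85, adjusted p = 0.0466). Of the heat shock list, none of the 15 members tested were higher and 2 lower, namely CHORDC1, an HSP90 cochaperone with 14.7, 15.3 and 13.5 TPM with vehicle and 9.96, 8.2 and 8.07 TPM at 2 Day (log2(fold change) -0.62, adjusted p = 0.00196), and HSPH1, an HSP110 chaperone with 77.2, 81.2 and 75.4 TPM with vehicle and 61, 46.6 and 51.9 TPM at 2 Day (log2(fold change) -0.44, adjusted p = 0.00871). Of the targets of hypoxia-inducible factors outside glycolysis, 2 of the 27 members tested were higher and 2 lower (STC1 and TFRC, and INSIG2 and CA12), and none of 19 glycolysis genes passed. Of the DEGs in these lists, those not called in all 6 fits with 1 library left out were TFRC (1 of 6 fits, adjusted p up to 0.17), TRIB3 (1 of 6 fits, adjusted p up to 0.178), ATF3 (4 of 6 fits, adjusted p up to 0.0685), HSPH1 (5 of 6 fits, adjusted p up to 0.0508), STC1 (1 of 6 fits, adjusted p up to 0.14) and CA12 (1 of 6 fits, adjusted p up to 0.161).

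Most sterol synthesis genes had lower values at 2 Day, although few passed the test. The share of lower genes among all tested was 3.97%. Of the cholesterol and fatty acid synthesis list, none of the 27 members tested were higher and 3 lower, 3 of the 27 had a positive log2(fold change) and the median was -0.19, with a summed TPM of 2746 to 3100.2 at 2 Day and 3322 to 3979.7 with vehicle. MSMO1, a sterol methyl oxidase, had 237, 208 and 207 TPM with vehicle and 137, 110.2 and 150.2 TPM at 2 Day (log2(fold change) -0.60, SE 0.09, adjusted p = 0.00515). SQLE, squalene epoxidase (log2(fold change) -0.36, adjusted p = 0.0195), and SC5D, a sterol desaturase (log2(fold change) -0.37, adjusted p = 0.0275), were the other DEGs. INSIG2, which holds the sterol-regulated SREBP factors in the endoplasmic reticulum, was also lower, with 23.6, 22.5 and 22.4 TPM with vehicle and 14.8, 13.8 and 14.4 TPM at 2 Day (log2(fold change) -0.55, adjusted p = 0.00529). With 1 library left out, 1 to 6 list members were lower, MSMO1 in all 6 fits, SQLE in 3 and SC5D in 1, with 6 lower without 2 Day replicate 3.

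Of the CLK kinases and SR splicing factors, 1 of the 18 members tested was higher and 5 lower. For this and the next lists, the shares among all genes tested were 2.89% and 3.97%. RSRP1 (log2(fold change) -0.51, adjusted p = 0.00674), TRA2A (log2(fold change) -0.35, adjusted p = 0.0155), SRSF1 (log2(fold change) -0.29, adjusted p = 0.039), CLK2 and CLK4 were lower, and SRSF5, itself a splicing factor, was higher, with 148, 149.9 and 138 TPM with vehicle and 181, 168 and 174 TPM at 2 Day (log2(fold change) 0.38, adjusted p = 0.00305). Of the cell cycle list, none of the 24 members tested were higher and 2 lower, namely CCNA2 (log2(fold change) -0.37, adjusted p = 0.0342) and CCND2 (log2(fold change) -0.22, adjusted p = 0.046). Among subunits of the GABA-A receptor, the chloride channel of fast inhibition, 3 of the 14 members tested were higher and 1 lower. GABRA2 (log2(fold change) 0.33, adjusted p = 0.0195), GABRB2 (log2(fold change) 0.46, adjusted p = 0.0195) and GABRQ (log2(fold change) 0.83, adjusted p = 0.0186) were higher and GABRA5 lower (log2(fold change) -0.50, adjusted p = 0.0428), while GABRR2, below the filter, had 0.442, 0.615 and 0.636 TPM with vehicle and 0.302, 0.0477 and 0.307 TPM at 2 Day. None of 14 glutamate receptor subunit genes passed, including GRIN1 at 6.13, 6.02 and 4.78 TPM with vehicle and 4.04, 4.82 and 6.57 TPM at 2 Day (log2(fold change) -0.00, adjusted p = 0.993). Of the DEGs named here, those not called in all 6 fits with 1 library left out were TRA2A (4 of 6 fits, adjusted p up to 0.0853), SRSF1 (1 of 6 fits, adjusted p up to 0.133), CLK2 (0 of 6 fits, adjusted p up to 0.157), CLK4 (1 of 6 fits, adjusted p up to 0.179), CCNA2 (1 of 6 fits, adjusted p up to 0.154), CCND2 (1 of 6 fits, adjusted p up to 0.166), GABRA2 (3 of 6 fits, adjusted p up to 0.0893), GABRB2 (3 of 6 fits, adjusted p up to 0.0788), GABRQ (2 of 6 fits, adjusted p up to 0.0851) and GABRA5 (2 of 6 fits, adjusted p up to 0.151). CLK2 did not pass on total gene reads (adjusted p = 0.129).

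**Figure D3:**
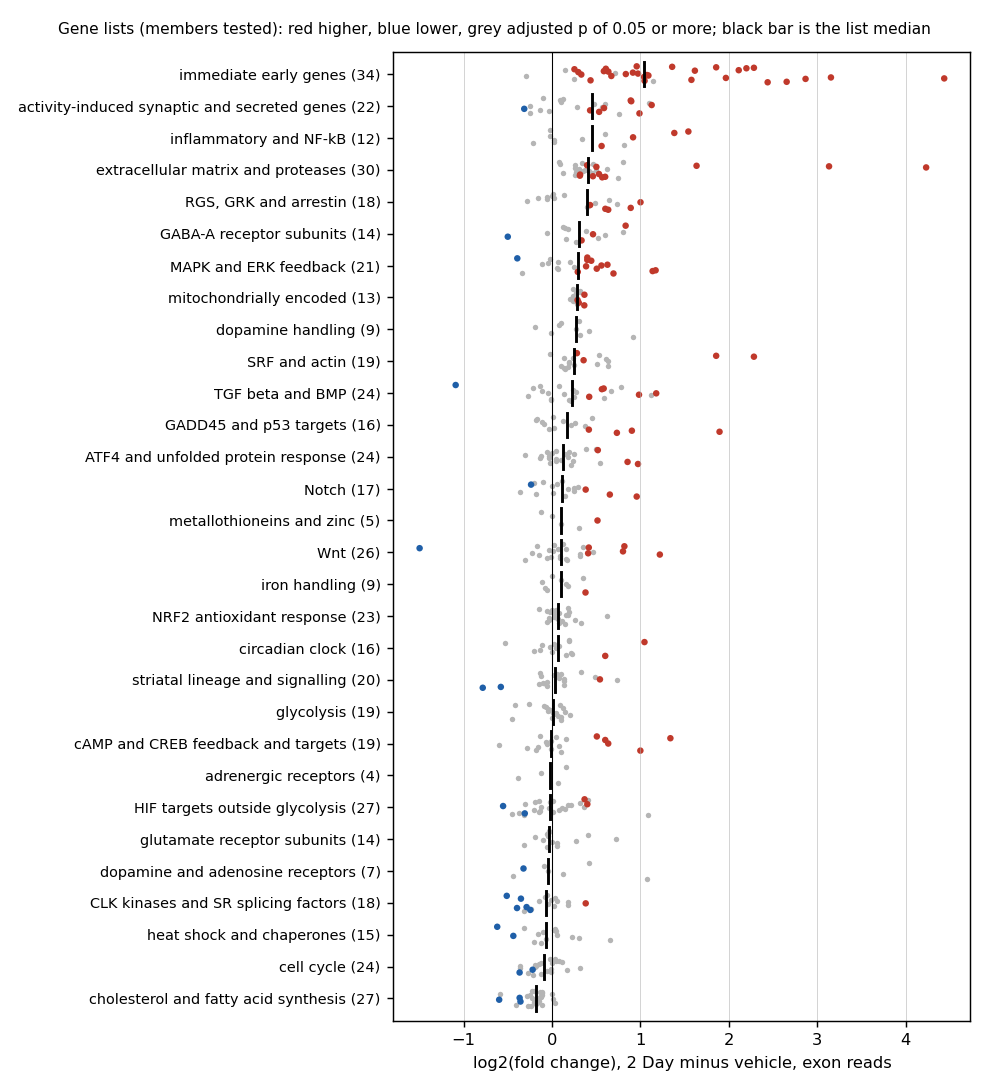
Log2(fold change) of 2 Day over vehicle on exon reads for the members tested of 30 gene lists (number tested in brackets), ordered by list median (black bars). Red points are DEGs higher at 2 Day, blue points DEGs lower and grey points genes that did not pass. Immediate early genes have the highest median (1.04) and cholesterol and fatty acid synthesis the lowest (-0.19).

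The largest decrease of an abundant gene was that of FST (ENSG00000134363, chr5:53480626-53487134), which encodes follistatin, a secreted protein that binds and blocks activins. FST had 359, 421 and 486 TPM with vehicle and 175, 63.9 and 96.6 TPM at 2 Day, a level lower by a factor of 3.55 with 2 Day replicate 2 lowest (log2(fold change) -1.83, SE 0.25, adjusted p = 0.00237). WNT7A (ENSG00000154764, chr3:13816258-13880071), a secreted Wnt ligand, had 18.7, 20.7 and 25.4 TPM with vehicle and 9.05, 5.98 and 6.48 TPM at 2 Day, lower by a factor of 2.82 (log2(fold change) -1.50, SE 0.16, adjusted p = 0.00064). LDLRAD4, a membrane protein that, like PMEPA1, inhibits TGF beta signalling, had 30.1, 37.9 and 41.6 TPM with vehicle and 17.2, 8.27 and 10.7 TPM at 2 Day (log2(fold change) -1.51, SE 0.20, adjusted p = 0.00161). These 3 genes and PMEPA1 passed in all 6 fits with 1 library left out. In FST, LDLRAD4 and PMEPA1, 2 Day replicate 1 had the highest and replicate 2 the lowest of the 2 Day levels.

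Several receptor genes were among the largest decreases. PROKR2, a receptor for prokineticins, had 12.1, 14.4 and 13.7 TPM with vehicle and 5.86, 3.08 and 2.12 TPM at 2 Day (log2(fold change) -1.79, adjusted p = 0.00897). GPR139 had 3.69, 6.82 and 5.88 TPM with vehicle and 1.32, 0.971 and 1.43 TPM at 2 Day (log2(fold change) -2.02, adjusted p = 0.00966) and GPR22 had 2.44, 2.85 and 2.09 TPM with vehicle and 1.01, 0.64 and 0.824 TPM at 2 Day (log2(fold change) -1.48, adjusted p = 0.0173), both coding for orphan G protein-coupled receptors. MAFA, a large Maf transcription factor, had 7.97, 13.2 and 15.1 TPM with vehicle and 4.92, 2.1 and 4.22 TPM at 2 Day (log2(fold change) -1.62, adjusted p = 0.0128). GDA, guanine deaminase (log2(fold change) -1.69, adjusted p = 0.017), and TUBA8, an alpha tubulin (log2(fold change) -1.68, adjusted p = 0.0264), lay near or below 2 TPM in every library. The non-coding genes AL157838.1, AC069281.2 and CNTFR-AS1 completed the 12 largest decreases, and since the strand used in counting is not given in the sources used here, reads of the antisense gene CNTFR-AS1 cannot be told apart from those of its partner. Of these genes, those not called in every fit with 1 library left out were GPR139 (5 of 6 fits, adjusted p up to 0.0592), GPR22 (3 of 6 fits, adjusted p up to 0.0937), MAFA (4 of 6 fits, adjusted p up to 0.0561), GDA (3 of 6 fits, adjusted p up to 0.0729), TUBA8 (1 of 6 fits, adjusted p up to 0.113), AL157838.1 (1 of 6 fits, adjusted p up to 0.107) and CNTFR-AS1 (2 of 6 fits, adjusted p up to 0.138).

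**Figure D4:**
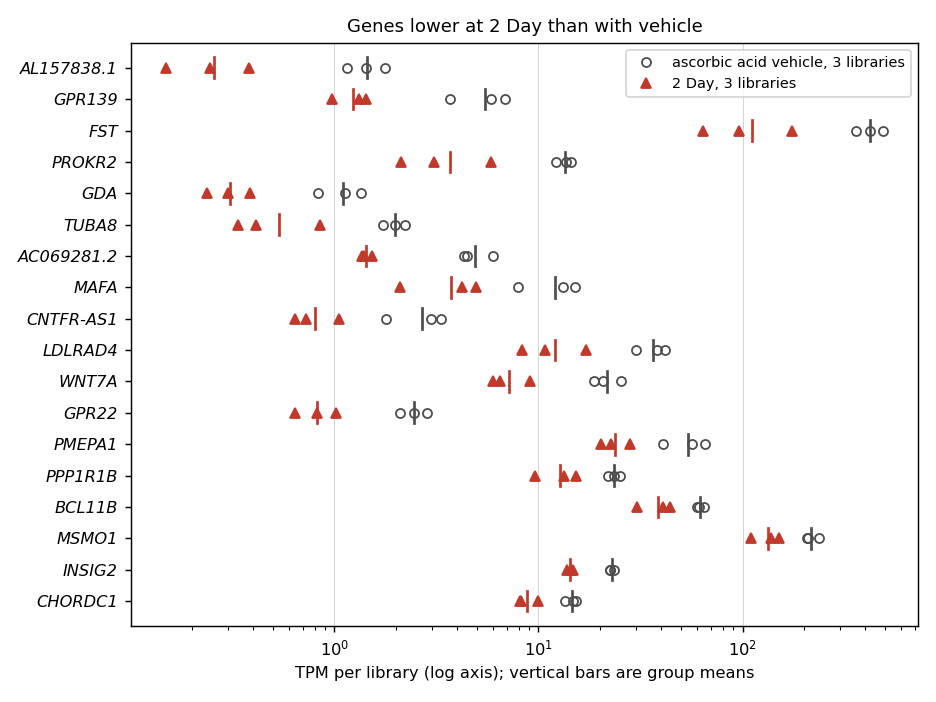
TPM per library on a log axis for the 12 largest decreases and for 6 lower genes of the gene lists. Open circles are the 3 vehicle libraries, red triangles the 3 libraries of 2 Day and vertical bars the group means. The 12 largest decreases were chosen among genes whose groups do not overlap, and FST is the most abundant of the genes shown.

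No fold change is given for 2 of the 12 largest increases. H2AC18, a histone gene, was listed at 0 exon reads in the 3 vehicle libraries and at 14.4, 38.1 and 31.7 TPM at 2 Day. None of its reads was uniquely mapped, and its near-identical copy H2AC19 changed the other way, so that the summed reads of both copies were 140, 147 and 117 with vehicle and 90, 169 and 108 at 2 Day. The sums overlapped between the groups. For Z83844.1, 23.5% of reads were uniquely mapped, and its 0.392, 0 and 0 TPM with vehicle and 2.91, 3.24 and 2.93 TPM at 2 Day are uncertain as well.

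Counting all reads on genes in place of exon reads gave 2073 DEGs of 19565 genes tested (10.6%), of which 1023 were higher (5.23%) and 1050 lower (5.37%). Both counts called 973 genes, all in the same direction, which is 88.3% of the exon DEGs and 46.9% of the total gene read DEGs. Of the 34 immediate early genes, 29 were higher and none lower on total gene reads, with a median log2(fold change) of 1.06. EGR1 changed by 2.84 (adjusted p = 1.21e-05), FOS by 2.42 (adjusted p = 3.60e-06) and FST by -1.65 (adjusted p = 0.00215) on the log2 scale, close to their exon values. 10 of the 118 named DEGs did not pass on total gene reads, among them ADORA1 (adjusted p = 0.0664), GABRA5 (adjusted p = 0.0521) and AL157838.1 (adjusted p = 0.0682).

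The 2 Day libraries were also compared directly with those of cultures dosed daily for 3, 4 or 5 days and collected on the same day in vitro, in a fit without the vehicle libraries. 3 Day differed from 2 Day in 362 of 16532 genes (2.19%), of which 208 were higher at 3 Day (1.26%) and 154 lower (0.932%). No gene passed for 4 Day (888 at an unadjusted p under 0.05 with edgeR, 2 DEGs with DESeq2), and 2 passed for 5 Day, which has 2 libraries (0.0121%; 1116 at an unadjusted p under 0.05, 9 DEGs with DESeq2). The 3 Day count rested on single libraries, since it was 0 without 2 Day replicate 2 or 3 Day replicate 2, 36 without 3 Day replicate 3 and 107 without 2 Day replicate 3. On total gene reads no gene passed for 3 Day with edgeR, with 2591 at an unadjusted p under 0.05.

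Of the 34 immediate early genes, 1 passed between 2 Day and 3 Day, a share near the 2.19% of all genes, and none for 4 Day or 5 Day, where almost no gene passed. The median difference from 2 Day was -0.03 at 3 Day, 0.00 at 4 Day and -0.04 at 5 Day. Single members differed in both directions, from -0.68 to 1.28 at 3 Day, -0.72 to 0.24 at 4 Day and -1.02 to 0.61 at 5 Day, and 17, 17 and 14 of the 34 were positive. The one that passed was IER3, which had 210.5, 316 and 322 TPM at 3 Day against 149, 164 and 101 TPM at 2 Day (log2(fold change) 1.0, SE 0.18, adjusted p = 0.0214). EGR1 had 287, 301 and 261 TPM at 3 Day, 236, 226 and 217 at 4 Day and 245 and 189 at 5 Day, and its difference from 2 Day at 5 Day was 0.13 on the log2 scale (95% confidence interval -0.29 to 0.55). FOS had 66.9, 71.6 and 67 TPM, 68.8, 66.7 and 67.6 TPM and 57 and 58.1 TPM at 3, 4 and 5 Day, with an interval of -0.44 to 0.11 for 5 Day minus 2 Day. ARC at 5 Day was at 22 and 46.6 TPM, with an interval of -0.46 to 0.33. For EGR1 and FOS a 2-fold difference between 5 Day and 2 Day thus lay outside the interval. Of all genes tested against the vehicle libraries, which the regimens share, 5.41% were higher and 3.81% lower at 3 Day, 7.32% and 6.19% at 4 Day and 0.33% and 0.0428% at 5 Day. The 2 libraries of 5 Day, replicates 2 and 3, were unlike each other. Mitochondrially encoded genes took 12.1% and 5.7% of their exon reads, and introns 18.3% and 14.6% of their gene reads. The part of this in the 5 Day values was not tested. Against vehicle, the log2(fold change) of EGR1 was 2.87 at 2 Day, 3.31 (adjusted p = 2.26e-07) at 3 Day, 2.92 (adjusted p = 4.87e-09) at 4 Day and 3.0 (adjusted p = 0.00208) at 5 Day.

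Genes that were lower at 2 Day included several at or above the vehicle level at 3 Day. FST had 525, 562 and 517 TPM at 3 Day, 167, 281 and 69.2 TPM at 4 Day and 281 and 79.1 TPM at 5 Day, so that 3 Day was higher than 2 Day (log2(fold change) 2.25, SE 0.52, adjusted p = 0.0432). WNT7A had 23.3, 26.5 and 24.6 TPM at 3 Day and 10.3, 13.4 and 7.73 TPM at 4 Day (log2(fold change) 1.78, SE 0.25, adjusted p = 0.0109 for 3 Day minus 2 Day). PMEPA1 (log2(fold change) 1.78, SE 0.26, adjusted p = 0.0109), LDLRAD4 (log2(fold change) 2.02, SE 0.38, adjusted p = 0.0236), PROKR2 (log2(fold change) 2.03, SE 0.44, adjusted p = 0.0346) and MAFA (log2(fold change) 2.93, SE 0.53, adjusted p = 0.0203) were higher at 3 Day as well. These genes were chosen for low values in the same 2 Day libraries, which lowers the 2 Day side of this difference. Against vehicle, the log2(fold change) of FST was -1.83 at 2 Day, 0.43 (adjusted p = 0.0379) at 3 Day, -1.28 (adjusted p = 0.0213) at 4 Day and -1.0 (adjusted p = 0.415) at 5 Day, and that of WNT7A was -1.50, 0.28 (adjusted p = 0.2), -1.03 (adjusted p = 0.00331) and -1.02 (adjusted p = 0.189). PPP1R1B did not pass between 3 Day and 2 Day (log2(fold change) 0.66, SE 0.32, adjusted p = 0.289).

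Some actin and matrix genes were higher at 3 Day than at 2 Day. Of the serum response factor and actin list, 6 of 20 were higher at 3 Day and none lower, all had a positive difference and the median was 0.52, and of the matrix list 3 of 31 were higher (median 0.44), against 1.26% higher and a median of 0.00 among all genes. Chosen after their values were seen, ACTA2, smooth muscle actin, went from 54.3 to 191 TPM and TAGLN, transgelin, from 40.1 to 161 TPM (group means of 2 Day and 3 Day). Markers of the choroid plexus moved in the same comparison, with 2 of 3 lower at 3 Day, against 0.932% lower among all genes. They were TTR, from 2224 to 675 TPM, and FOLR1, from 35.4 to 19.7 TPM. The endothelial gene CLDN5 was lower as well, from 11.9 to 2.53 TPM. Chosen after their values were seen, the genes TEKT1 (from 10.7 to 2.22 TPM) and CFAP126 (from 162 to 62.8 TPM) of motile cilia were also lower. The part of these cell types in the difference was not tested. With edgeR, no gene passed between 3 Day and 2 Day without 2 Day replicate 2, without 3 Day replicate 2 or on total gene reads. MMP1 at 3 Day was at 5.1, 5.74 and 5.08 TPM and did not pass against 2 Day (log2(fold change) 0.91, SE 0.36, adjusted p = 0.2).

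**Figure D5:**
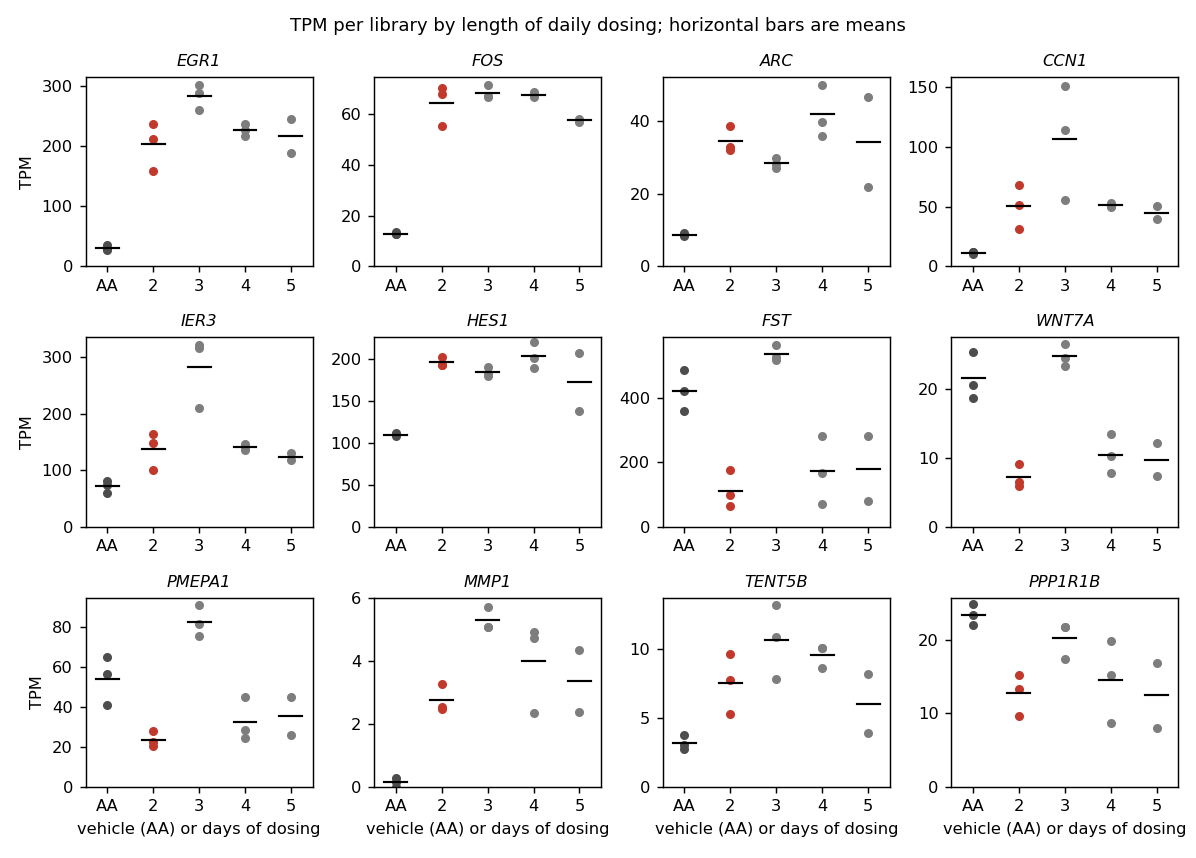
TPM per library for 12 genes with vehicle (AA) and after 2 to 5 days with daily 1 mM dopamine, on linear axes from 0, with horizontal bars for group means. Points are libraries, 3 per group and 2 at 5 days. EGR1, FOS and ARC lie above vehicle after 2 to 5 days, with ARC spread between the 2 libraries of 5 days, while FST, WNT7A and PMEPA1 are low after 2 days and at or above vehicle after 3 days.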

How the data were processed

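RNA-seq of 6 libraries of H9 hMSN-like cells was compared, 3 given 1 mM dopamine for 2 days and 3 given ascorbic acid vehicle, with 8 libraries of 3, 4 and 5 days for the direct comparisons. The authors trimmed and mapped the paired reads in CLC Genomics Workbench to hg38 with an Ensembl annotation and deposited 1 table of 60676 genes per library, with counts of exon, intron, total gene and uniquely mapped reads, and with TPM from exon reads. The authors' TPM was used for levels only. Providers and strand per library are not given in the sources used here, so no sequencing batch was modelled and reads of overlapping or antisense genes are uncertain. No pair of libraries was identical.

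Deposited counts were tested with edgeR (version 4.0.16, R 4.3.3; filterByExpr with minimum count 10 and total 15, TMM, glmQLFit, glmQLFTest) on the 6 libraries without covariates, with Benjamini-Hochberg adjustment over all genes tested. A DEG had an adjusted p under 0.05. Exon reads were the main count and total gene reads the second. Standard errors were obtained from the F statistic and the log2(fold change). Direct comparisons used a fit of the 2 to 5 day libraries. On simulated counts with the depths of these libraries and 15876 genes, edgeR recovered 31 of 50 genes changed by a log2 value of 0.5, 98 of 100 at 1 and 50 of 50 at 2, with 5 false calls among 184. The simulation gave every gene the same spread and changed only genes with a mean of at least 50 counts. It therefore does not give the power or the false calls for genes with few reads or for the real spread between libraries.

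Alternatives were DESeq2 1.42.0 size factors and its Wald test, no filter, at least 10 counts in every library, a fit with all time course groups, replicate number as a block, thinning to the smallest library, uniquely mapped reads, a threshold on fold change and each library left out. Figures and tables used Python 3.11.15 with numpy 2.4.6, pandas 2.3.3 and matplotlib 3.10.9. A TPM of 0.356 to 0.582 stands for 3 exon reads on a gene of 2 kb of exons, for counting error only.

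The genes named are all immediate early genes listed, the dopamine receptor genes and ADORA2A, genes the study names for RNA-seq, up to 4 DEGs of smallest adjusted p of each other list (the 2 most abundant members where none passed) and the 12 largest changes in each direction with a group mean of at least 1 TPM and no overlap. Other DEGs of a list are named only to complete a count. The members, lists and tests were chosen with earlier results of these data known. The 30 gene lists and 16 marker lists were written by hand.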

Additional observations from a re-analysis of the deposited data

How the results depend on the processing

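The 1102 DEGs on exon reads became 2267 with no filter on low counts and 651 in a fit with the 3, 4 and 5 Day libraries, and 2073 on total gene reads. A further threshold of 2-fold and 1 TPM left 90 on exon reads and 117 on total gene reads. Apart from the replicate block, given below, and left-out libraries, the other totals of the 2 Day comparison stayed within 1.5 times. The exon count was 273 to 1597 when 1 library was left out. The 2073 DEGs on total gene reads became 3914 with no filter, 726 in the fit with all time course groups and 374 to 1929 with each library left out (684, 374 and 1130 without AA vehicle replicate 1, 2 and 3).

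For 3 Day against 2 Day, 362 DEGs became 657 with the Wald test, 1292 with no filter, 0 on total gene reads and 0 to 498 with each library left out. For 4 Day, 0 became 2 with the Wald test, 96 with no filter and 1 with the 2 groups alone. For 5 Day, 2 became 9 with the Wald test, 139 with no filter, 5 with the 2 groups alone, 1 on total gene reads and 2 to 89 with each library left out. The cause of these moves was not tested.

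Same-numbered libraries did not deviate together (correlations of -0.090, 0.004 and 0.052). Whether the numbers pair the cultures is not given in the sources used here, and these values cannot settle it. With replicate number as a block, 515 genes passed on exon reads, 1044 on total gene reads 243 for 3 Day and 1 for 5 Day against 2 Day.

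Of 118 named DEGs none changed direction under any alternative run, and 61 passed under all that tested them. They lost most calls without AA vehicle replicate 2 (54), AA vehicle replicate 1 (46) and AA vehicle replicate 3 (38). Among genes that did not pass, ADORA2A changed sign with the replicate block (0.058) and after thinning (0.054), CCNB1 after thinning (0.024) and on total gene reads (0.012), DRD4 on total gene reads (0.041) and GRIN1 in the fit with all groups (0.0085). With each library left out, the log2(fold change) ranged from -0.53 to 0.33 for ADORA2A, -0.069 to 0.073 for CCNB1, -0.091 to 0.73 for DBH, -0.074 to 0.26 for DRD3, -0.23 to 0.22 for DRD4, -0.13 to 0.016 for GRIA1, -0.21 to 0.14 for GRIN1 and -0.19 to 0.22 for SLC32A1. Genes under about 1 TPM rest on few reads.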
